A study of Homo sapiens with 6 samples.

Results

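The proteasome genes described here are the gene symbols that begin with PSMA, PSMB, PSMC, PSMD, PSME, PSMF or PSMG followed by a digit. The rule found 49 of the 16626 genes in the table, and no measured value entered it. They comprise 48 genes for proteasome subunits, assembly factors and regulators, and PSMC3IP, a recombination factor that carries the prefix only because its protein binds the ATPase subunit PSMC3. They were measured by RNA-seq in KGN cells, an established human line with granulosa cell features that was grown from an ovarian tumour. The 6 libraries fall into 3 labelled OE-SOX3, with the genotype given as SOX3 overexpression, and 3 labelled OE-NC, with the genotype given as wild type. The labels name neither a vector nor a promoter, a time after delivery, or a clone. Whether each library had its own culture is not stated either, so the p-values reflect the scatter among these 6 libraries and that scatter may be technical.

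The proteasome is the protease that degrades most ubiquitin-tagged proteins of the cytosol and nucleus. Its core particle is a barrel in which rings of alpha subunits enclose rings of beta subunits, some of which are catalytic, and its regulatory cap has a base with an ATPase ring that unfolds substrates and a lid that removes their ubiquitin. Interferon-inducible beta subunits can replace the constitutive catalytic ones to form the immunoproteasome, which shapes peptides for presentation on MHC class I. Dedicated chaperones build the core and the base. Other activators can take the place of the cap, and the transcription factor NRF1 (gene NFE2L1) raises proteasome genes together when proteasome capacity is short.

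SOX3 was present in every OE-SOX3 library and near 0 in OE-NC. It had 14.3, 13.7 and 14.4 FPKM in OE-SOX3, against 0.0756, 0.142 and 0.0254 FPKM in OE-NC, from 579, 547 and 540 reads against 3, 6 and 1. FPKM is reads per kilobase of gene, scaled to the library total. Library totals recovered from the values ran from 18039929 to 20335307 reads. Of the 8 granulosa markers chosen, 7 were listed and 5 averaged at least 1 FPKM over all libraries, and the 7 summed to 145 to 151 FPKM in OE-SOX3 and 58.6 to 61.6 FPKM in OE-NC. STAR carried most of that difference (118 FPKM in OE-SOX3, 33.6 FPKM in OE-NC), while NR5A1 averaged 15.4 FPKM in OE-SOX3 and 15.7 FPKM in OE-NC. Leukocytes, a possible source of immunoproteasome transcripts, had 1 of 6 markers at that level (CD68), and PTPRC, CD3E, CD14 and LYZ were at most 0.513 FPKM in any library. The leukocyte list summed to 55.6 to 57.6 FPKM in OE-SOX3 and 76.0 to 79.99 FPKM in OE-NC, nearly all of it CD68. Epithelial markers (KRT7 present, EPCAM near 0) summed to 39.6 to 45.6 FPKM in OE-SOX3 and 107 to 141 FPKM in OE-NC, and endothelial markers (PECAM1 present, CDH5 and VWF near 0) to 2.49 to 2.66 FPKM in OE-SOX3 and 3.5 to 3.99 FPKM in OE-NC. The part of these marker levels in the results below was not tested, and in bulk RNA fewer cells of a type and less RNA per cell cannot be told apart. One library stood apart. OE-NC replicate 1 correlated at 0.986 with the other OE-NC libraries (log2 values across genes), against 0.998 between OE-NC replicates 2 and 3 and 0.997 to 0.998 within OE-SOX3, so results are given with and without it.

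Proteasome transcripts were lower in OE-SOX3 as a group. The 49 genes summed to 2578, 2466 and 2463 FPKM in OE-SOX3, against 4422, 3570 and 3534 FPKM in OE-NC. They took 0.420%, 0.405% and 0.405% of the reads in listed genes in OE-SOX3, against 0.730%, 0.620% and 0.616% in OE-NC. The groups do not overlap in either sum, and OE-NC replicate 1 is the highest library. In a limma-trend fit over 11131 genes with an average of at least 1 FPKM in a group, with Benjamini-Hochberg adjusted p under 0.05 as the threshold, 40 of 48 tested proteasome genes fell, 0 rose and 8 did not pass. Among all tested genes, 36.1% fell and 32.9% rose. Without OE-NC replicate 1, 45 fell, 1 rose (PSME1) and 2 did not pass, beside 43.1% and 38.4% of all tested genes.

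The median log2 fold change of the 48 genes was -0.60, against -0.03 over all tested genes, and without OE-NC replicate 1 the proteasome median was -0.51. Fold changes are OE-SOX3 over OE-NC on the log2(FPKM + 1) scale, which understates the change of low genes. At least 1.5-fold lower and past the threshold were 25 of the 48 genes, beside 18.5% of all tested genes. This count was 17, beside 17.6%, without OE-NC replicate 1. At least 2-fold lower were 6 (PSMC3IP, PSMG1, PSME3, PSMC3, PSMD14 and PSMD2), beside 6.58% of all tested genes, and 6 again without that library, beside 6.04%. Every OE-SOX3 library was below every OE-NC library in 44 of the 48 genes, and the same held for 39.5% of all tested genes. The falls were therefore common across the proteasome and mostly of moderate size.

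**Figure D1:**
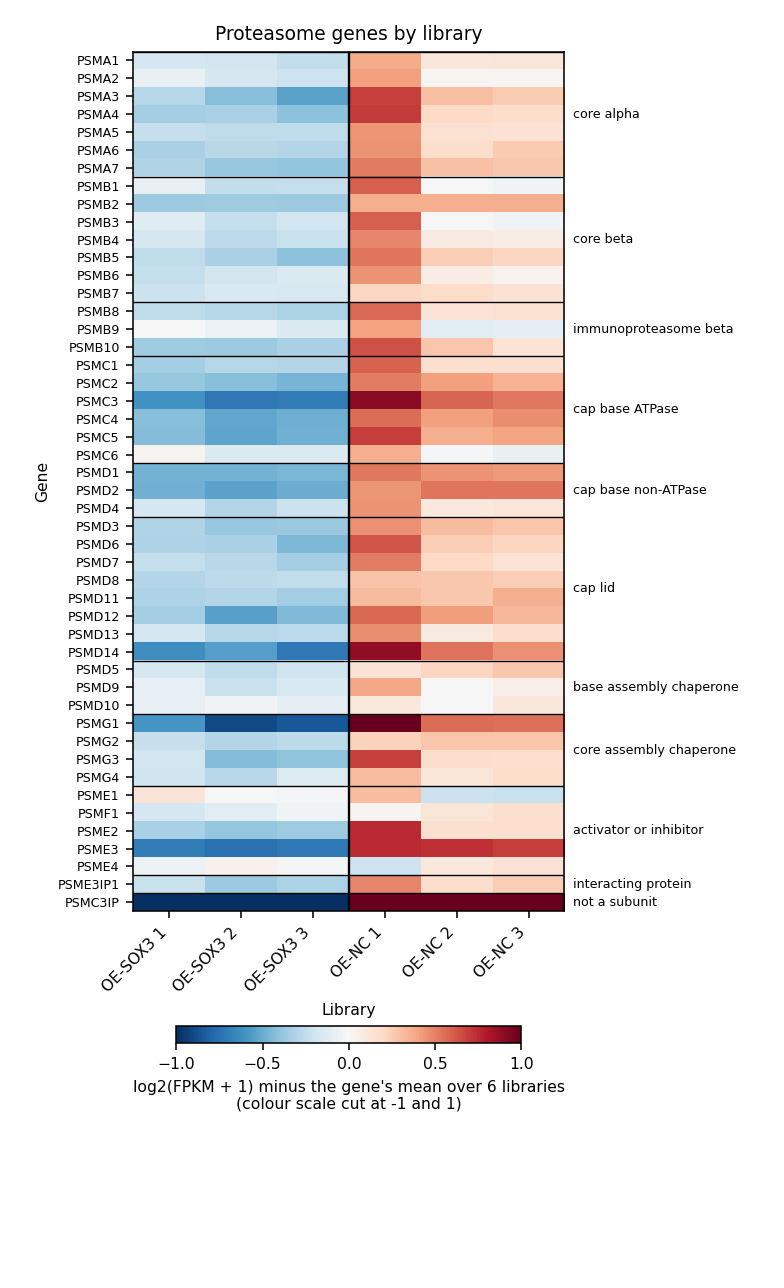
Each row is a tested proteasome gene and each column a library, 3 OE-SOX3 then 3 OE-NC. Colour gives log2(FPKM + 1) minus the gene's mean over the 6 libraries (blue lower, red higher, scale limited at -1 and 1). OE-SOX3 columns are blue in most rows, OE-NC replicate 1 is the reddest column, and PSMB9, PSMC6, PSME1 and PSME4 are the rows whose groups overlap.

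The outer rings of the core are built from alpha subunits, which form the gated entrance to the chamber. Of the 7 tested alpha genes, 6 fell and PSMA2 missed the threshold, and the median log2 fold change was -0.59 (-0.52 without OE-NC replicate 1, -0.36 with quantile normalization). PSMA3 had 56.4, 51.0 and 47.3 FPKM in OE-SOX3, against 111, 85.3 and 82.5 FPKM in OE-NC (log2 fold change -0.83, SE 0.13, limma adjusted p = 0.000888). Its groups are apart, with OE-NC replicate 1 the highest. PSMA7, the most abundant alpha transcript, averaged 129 ± 4.71 FPKM in OE-SOX3 and 213 ± 21.4 FPKM in OE-NC (SD, n = 3 each; log2 fold change -0.72). PSMA1, PSMA4, PSMA5 and PSMA6 fell by 0.40 to 0.71 on the log2 scale. PSMA2 had 90.6, 85.3 and 83.0 FPKM in OE-SOX3, against 127, 97.2 and 96.8 FPKM in OE-NC. The groups were apart, but the difference missed the threshold (limma adjusted p = 0.0516) and passed it when same-numbered libraries were blocked (adjusted p = 0.0164). PSMA2 also passed with each OE-NC library left out in turn (limma adjusted p = 0.00445 to 0.0439). Its log2 fold change was -0.17 without OE-NC replicate 1. The other 10 alternatives left its call as it was. PSMA8 encodes an alpha subunit of the male germline that takes the place of PSMA7. It was not tested, since it had 0 reads in each OE-SOX3 library and 4, 1 and 2 reads in OE-NC, and 3 reads correspond to 0.0830, 0.0839 and 0.0890 FPKM in the OE-SOX3 libraries.

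The inner rings carry beta subunits, and PSMB5, PSMB6 and PSMB7 are the constitutive catalytic ones, with chymotrypsin-like, caspase-like and trypsin-like activity. Of the 7 constitutive beta genes, 5 fell, and PSMB1 and PSMB3 did not pass. The median log2 fold change was -0.37 (-0.30 without OE-NC replicate 1). With the trend on gene length removed from each library, the median was -0.12 and 3 genes fell, since PSMB6 (-0.11, adjusted p = 0.106) and PSMB7 (-0.099, adjusted p = 0.332) no longer passed. The count was also 3 without OE-SOX3 replicate 2. PSMB5 had 90.3, 86.2 and 81.1 FPKM in OE-SOX3, against 157, 128 and 125 FPKM in OE-NC (log2 fold change -0.66, SE 0.10, limma adjusted p = 0.000822). PSMB6 had 87.9, 91.4 and 93.8 FPKM in OE-SOX3, against 142, 109 and 106 FPKM in OE-NC (log2 fold change -0.37, adjusted p = 0.0224). PSMB7 had 109, 115 and 114 FPKM in OE-SOX3, against 147, 145 and 141 FPKM in OE-NC (log2 fold change -0.35, adjusted p = 0.00121). The groups are apart for all 3 catalytic genes, and for PSMB6 the OE-NC libraries 2 and 3 lie closer to OE-SOX3 than to OE-NC replicate 1.

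PSMB2 is a structural beta subunit and had the tightest values of the core. It averaged 29.7 ± 0.0662 FPKM in OE-SOX3 and 49.8 ± 0.0486 FPKM in OE-NC (SD, n = 3 each; log2 fold change -0.72, SE 0.05, limma adjusted p = 2.56e-05). PSMB4, another structural subunit, averaged 169.8 ± 5.80 FPKM in OE-SOX3 and 232 ± 39.4 FPKM in OE-NC, and fell by 0.43 on the log2 scale. PSMB1 and PSMB3 had the widest OE-NC spread of the class, with 235 and 226 FPKM in OE-NC replicate 1 against 145 to 155 FPKM in OE-NC replicates 2 and 3. Their log2 fold change was -0.37 each (adjusted p = 0.0871 for PSMB1 and 0.0851 for PSMB3), and -0.17 and -0.16 without that library. Both passed with the replicate block, with adjusted p = 0.0175 for PSMB1 and 0.0263 for PSMB3. They also passed without OE-NC replicate 1 (limma adjusted p = 0.0133 and 0.00418) and without OE-NC replicate 3 (0.0462 and 0.0469). The other 11 alternatives left both calls as they were.

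The 3 inducible catalytic subunits of the immunoproteasome moved unequally. PSMB8, which replaces PSMB5, had 60.4, 59.1 and 57.8 FPKM in OE-SOX3, against 107, 79.8 and 80.6 FPKM in OE-NC (log2 fold change -0.57, SE 0.12, limma adjusted p = 0.00388; -0.43 without OE-NC replicate 1). PSMB10, which replaces PSMB7, had 16.2, 16.1 and 16.6 FPKM in OE-SOX3, against 33.2, 25.7 and 23.2 FPKM in OE-NC (log2 fold change -0.70, SE 0.12, adjusted p = 0.0019; -0.55 without that library). Both fell, and their groups are apart. PSMB8 (chromosome 6, 32840717 to 32844703, minus strand, GRCh38) and PSMB9 (32844136 to 32859585, plus strand) are neighbours. Of the exon bases, 20.6% in PSMB8 and 5.66% in PSMB9 are shared with other genes, the largest overlap of each being with PSMB8-AS1. Of the exon bases of PSMB10, 34.8% are shared with other genes. The largest overlap is with AC040162.1 on the same strand, so the PSMB10 value is uncertain whatever the strand setting. PSMB9, which replaces PSMB6, had 52.5, 50.5 and 47.5 FPKM in OE-SOX3, against 70.0, 48.7 and 49.0 FPKM in OE-NC. Here the groups overlap, and the sign turns on OE-NC replicate 1. The log2 fold change was -0.13 (SE 0.14, adjusted p = 0.423) with it and 0.04 (adjusted p = 0.491) without it.

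The balance of inducible to constitutive subunits was compared as a ratio within each library, which a common factor on a library cannot change. PSMB8 over PSMB5 averaged 0.689 ± 0.0221 in OE-SOX3 and 0.650 ± 0.0323 in OE-NC (SD, n = 3 each). These groups overlap through OE-NC replicate 1 (0.685), and OE-NC replicates 2 and 3 (0.621 and 0.643) lie below every OE-SOX3 library. PSMB9 over PSMB6 averaged 0.552 ± 0.0454 in OE-SOX3 and 0.467 ± 0.0243 in OE-NC, higher in each of the 3 OE-SOX3 libraries than in any OE-NC library. PSMB10 over PSMB7 averaged 0.145 ± 0.00388 in OE-SOX3 and 0.189 ± 0.0323 in OE-NC, lower in every OE-SOX3 library. The log2 ratios, taken after adding 1 FPKM to each value, differed by 0.09, 0.24 and -0.34, with exact two-sided permutation p = 0.2, 0.1 and 0.1 (Benjamini-Hochberg 0.2, 0.15 and 0.15 over the 3 ratios). With 3 libraries against 3 the smallest p is 0.1, so no ratio could pass. The ratios did not move in 1 direction, and without OE-NC replicate 1 the differences were 0.12, 0.28 and -0.21.

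**Figure D2:**
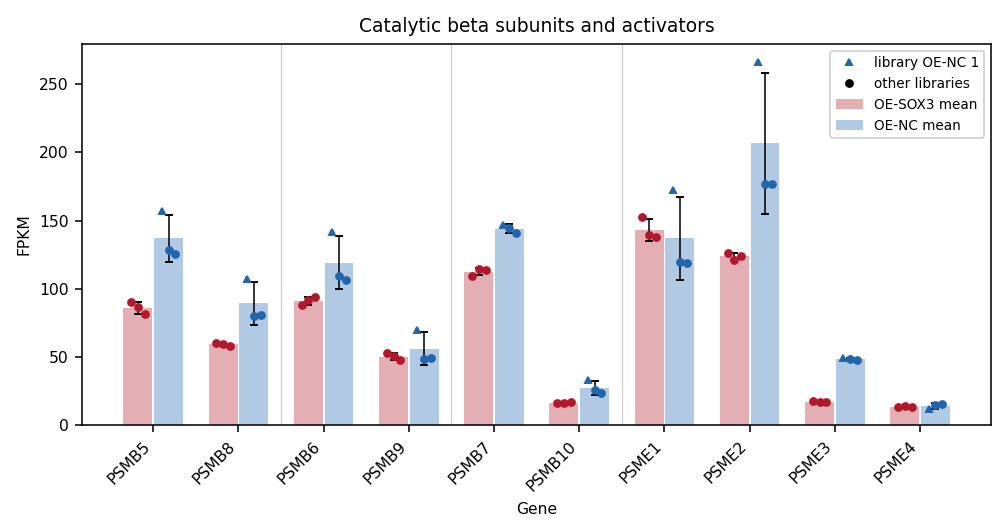
Bars give mean FPKM in OE-SOX3 (red, left of each pair) and OE-NC (blue) for the 3 pairs of constitutive and inducible catalytic subunits and for 4 activator subunits. Error bars are the SD of 3 libraries, points are libraries, and triangles mark OE-NC replicate 1. PSME3 shows the widest gap for its spread (17.1 and 48.3 FPKM), and PSMB9, PSME1 and PSME4 overlap between groups.

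Activators outside the cap ranged from a strong fall to no passing difference. PSME3 encodes the nuclear activator PA28-gamma, which opens the core without ubiquitin or ATP. GENCODE 29 places it on the plus strand of chromosome 17, from 42824385 to 42843758 (GRCh38). It had 17.4, 16.8 and 17.2 FPKM in OE-SOX3, against 49.1, 48.5 and 47.4 FPKM in OE-NC. The fall was 2.82-fold in FPKM (log2 fold change -1.44, SE 0.05, limma adjusted p = 2.5e-06) and -1.43 on the log2 scale without OE-NC replicate 1, which for this gene lay close above the other OE-NC libraries. PSME3IP1, whose protein binds PA28-gamma, averaged 9.09 ± 0.489 FPKM in OE-SOX3 and 14.4 ± 1.78 FPKM in OE-NC (SD, n = 3 each) and fell by 0.60 on the log2 scale. PSMF1, the proteasome inhibitor PI31, averaged 7.68 ± 0.380 FPKM in OE-SOX3 and 9.05 ± 0.487 FPKM in OE-NC (log2 fold change -0.21, adjusted p = 0.0273; the call was lost in 5 of 14 alternatives). PSME4, the activator PA200, had 13.0, 14.1 and 13.4 FPKM in OE-SOX3, against 11.7, 14.8 and 15.2 FPKM in OE-NC, with OE-NC replicate 1 the lowest library (log2 fold change -0.03, adjusted p = 0.821; -0.14, adjusted p = 0.025, without it).

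PSME1 and PSME2 encode the alpha and beta subunits of PA28, the interferon-inducible activator whose ring holds both. PSME2 had 126, 121 and 124 FPKM in OE-SOX3, against 266, 177 and 177 FPKM in OE-NC (log2 fold change -0.71, SE 0.16, limma adjusted p = 0.0056; -0.51 without OE-NC replicate 1). PSME1 had 152, 139 and 138 FPKM in OE-SOX3, against 172, 119 and 119 FPKM in OE-NC (log2 fold change 0.08, SE 0.15, adjusted p = 0.628). OE-NC replicate 1 alone makes the PSME1 groups overlap, and without it PSME1 rose by 0.26 on the log2 scale (adjusted p = 0.000409). The ratio of PSME2 to PSME1, chosen after the values were seen and not tested, was 0.829, 0.870 and 0.898 in OE-SOX3, against 1.54, 1.48 and 1.49 in OE-NC. OE-NC replicate 1 is close to its group in this ratio. The mean log2 ratio differed by -0.79 with that library and -0.77 without it.

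The promoters of the inducible genes are shown because interferon responses act through the interferon-stimulated response element, searched on both strands as GAAA, any 2 bases, then GAAA. RefSeq windows of 300 bases (GRCh38.p14, 250 before to 50 after the start) were matched for 43 of the 49 genes, 42 of them without PSMC3IP. The 43 genes have 54 windows, since some have several starts, and a gene was counted if any window held the letters. The letters stood in 7 of the 42 (16.7%): PSMA4, PSMB4, PSMB8, PSMB10, PSMG4, PSME1 and PSME2. Among 15843 protein-coding genes with a window, 4.16% held them. Of the 7, PSME1 is the only one that did not fall. The letters stood in 6 of 34 genes with a window that fell and in 1 of 7 that did not pass. The PSMB9 window holds no such letters. Of the PSMB8 windows, only that at chr6:32843998-32844297 holds them. The 60 bases around the match are given for the 4 immunoproteasome and PA28 genes, read on the strand of the gene. Capitals mark the match, which in PSMB8 and PSME1 reads as the reverse complement. They lie at chr6:32844017-32844076 (minus strand) for PSMB8, chr16:67936837-67936896 (minus) for PSMB10, chr14:24136174-24136233 (plus) for PSME1 and chr14:24146604-24146663 (minus) for PSME2.
PSMB8: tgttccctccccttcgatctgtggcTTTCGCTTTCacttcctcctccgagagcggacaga
PSMB10: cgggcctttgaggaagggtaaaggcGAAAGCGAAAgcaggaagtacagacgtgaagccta
PSME1: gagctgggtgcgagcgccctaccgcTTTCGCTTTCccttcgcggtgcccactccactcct
PSME2: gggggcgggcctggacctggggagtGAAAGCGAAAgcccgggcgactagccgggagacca
In all 4 the 2 bases between the GAAA repeats are GC on the strand of the spelled letters. A match describes the letters only, and the 4 genes that share it did not move alike.

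The lowest class medians of the complex were those of the cap, a difference between classes that was not tested. Of its 17 genes, 16 fell, with a median log2 fold change of -0.73 (-0.65 without OE-NC replicate 1). In the base, the ATPases PSMC1 to PSMC6 form the ring that unfolds substrates, and 5 of 6 fell, with a median of -0.90. PSMC3 had 60.6, 56.2 and 56.7 FPKM in OE-SOX3, against 175, 139.5 and 134 FPKM in OE-NC (2.58-fold lower; log2 fold change -1.34, SE 0.11, limma adjusted p = 3.85e-05; -1.23 without that library). PSMC5 had 63.6, 59.5 and 61.6 FPKM in OE-SOX3, against 140.2, 112 and 114 FPKM in OE-NC (log2 fold change -0.97, SE 0.10, adjusted p = 0.000116). PSMC4 had 28.5, 26.6 and 27.1 FPKM in OE-SOX3, against 57.1, 51.6 and 53.4 FPKM in OE-NC (log2 fold change -0.96, SE 0.07, adjusted p = 1.98e-05). All 3 had OE-NC values well clear of OE-SOX3. PSMC3 (chromosome 11, 47418769 to 47426473, minus strand, GRCh38) shares no exon base with another annotated gene.

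The other ATPases were PSMC2, PSMC1 and PSMC6. PSMC2 averaged 25.1 ± 0.769 FPKM in OE-SOX3 and 45.9 ± 2.71 FPKM in OE-NC (SD, n = 3 each; log2 fold change -0.84). PSMC1 averaged 15.6 ± 0.345 FPKM in OE-SOX3 and 24.7 ± 4.56 FPKM in OE-NC (log2 fold change -0.61). This value is uncertain. Of the exon bases of PSMC1, 75.8% are shared with other genes, the largest overlap being with NRDE2. The strand setting of the counting is not given in the sources used here, and 13 pseudogenes carry the name of PSMC1. PSMC6 averaged 15.5 ± 1.14 FPKM in OE-SOX3 and 17.8 ± 3.24 FPKM in OE-NC, with overlapping groups (log2 fold change -0.18, limma adjusted p = 0.241; -0.04, adjusted p = 0.567, without OE-NC replicate 1). One ring thus held a 2.58-fold fall in PSMC3 and no passing difference in PSMC6.

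The base also holds the scaffold subunits PSMD1 and PSMD2, which dock ubiquitin receptors and shuttle factors, and the ubiquitin receptor PSMD4. All 3 fell. PSMD2, the most abundant cap transcript, had 124, 120.0 and 123 FPKM in OE-SOX3, against 236, 253 and 252 FPKM in OE-NC (2.02-fold lower; log2 fold change -1.01, SE 0.06, limma adjusted p = 1.19e-05; -1.04 without OE-NC replicate 1). PSMD1 averaged 30.1 ± 0.243 FPKM in OE-SOX3 and 58.4 ± 2.25 FPKM in OE-NC (SD, n = 3 each; log2 fold change -0.93). PSMD4 averaged 94.9 ± 3.98 FPKM in OE-SOX3 and 131 ± 18.6 FPKM in OE-NC (log2 fold change -0.45, adjusted p = 0.00636). In PSMD2 the OE-NC replicate 1 value is the lowest of its group, unlike in most proteasome genes.

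All 8 lid genes fell, by 0.49 to 1.25 on the log2 scale with a median of -0.67 (-0.61 without OE-NC replicate 1). The largest fall was in PSMD14, the deubiquitinase that cleaves ubiquitin chains from substrates at the entry of the cap. It had 34.8, 36.6 and 32.6 FPKM in OE-SOX3, against 101, 79.0 and 74.5 FPKM in OE-NC (2.44-fold lower; log2 fold change -1.25, SE 0.12, limma adjusted p = 8.22e-05; -1.12 without that library). PSMD12, a structural lid subunit and the lowest lid transcript, averaged 6.91 ± 0.543 FPKM in OE-SOX3 and 13.6 ± 1.26 FPKM in OE-NC (SD, n = 3 each; log2 fold change -0.88). PSMD8 averaged 81.8 ± 1.32 FPKM in OE-SOX3 and 119 ± 1.91 FPKM in OE-NC (log2 fold change -0.54). The structural subunits PSMD3, PSMD6, PSMD7, PSMD11 and PSMD13 fell by 0.49 to 0.73, each with groups apart.

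**Figure D3:**
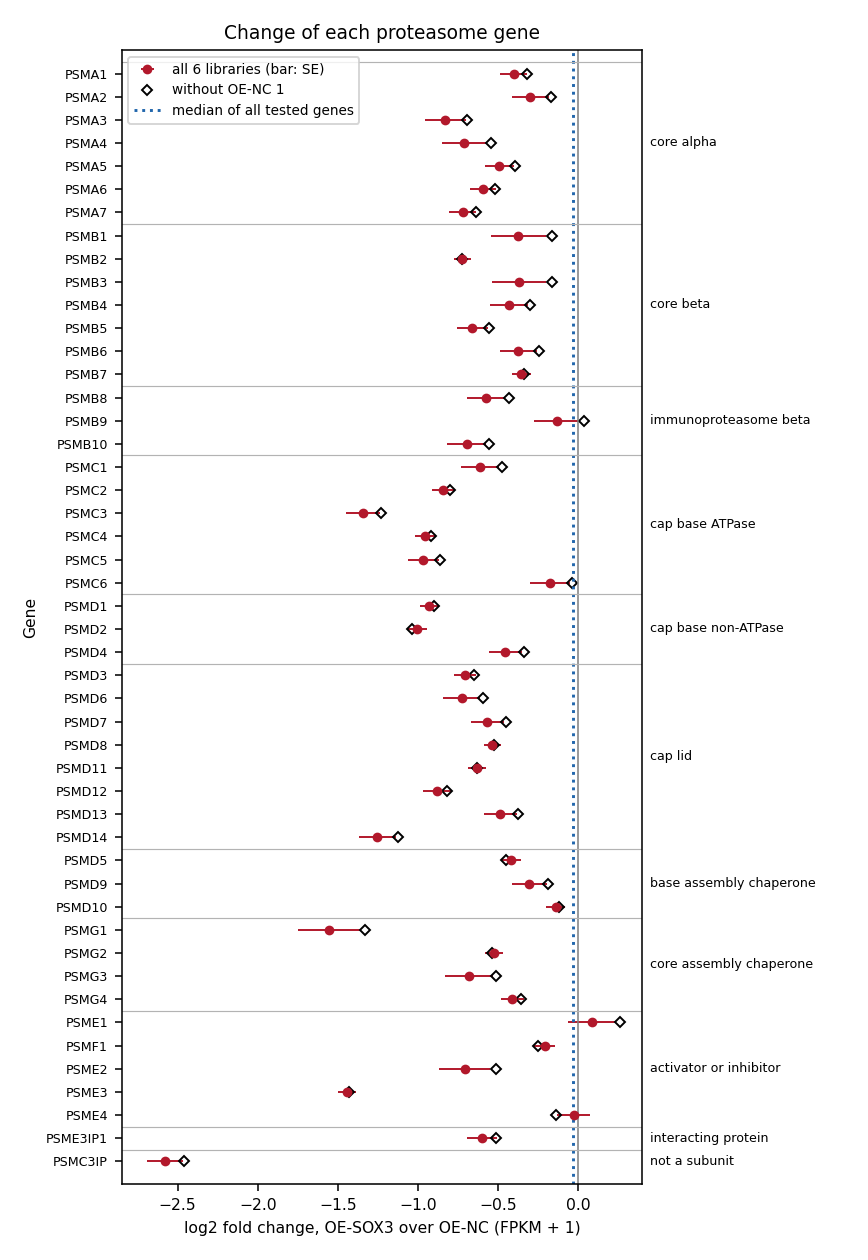
Each row is a tested proteasome gene, in classes by role. The red point is the log2 fold change (OE-SOX3 over OE-NC, FPKM + 1) with its SE, the open diamond is the value without OE-NC replicate 1, and the dotted line is the median of all tested genes (-0.03). Most points lie left of the dotted line, PSMC3IP (-2.58) and PSMG1 (-1.56) lie farthest left, and the diamonds of most genes lie nearer 0 than the points.

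Chaperones of core assembly act as pairs on the alpha ring, PSMG1 with PSMG2 and PSMG3 with PSMG4. All 4 fell, with a median of -0.60 (-0.53 without OE-NC replicate 1). PSMG1 (chromosome 21, 39174769 to 39183851, minus strand, GRCh38, no shared exon bases) had the largest fall of any proteasome gene proper, with 8.76, 6.83 and 7.16 FPKM in OE-SOX3, against 33.4, 20.6 and 20.4 FPKM in OE-NC (3.27-fold lower; log2 fold change -1.56, SE 0.19, limma adjusted p = 0.00032; 2.70-fold and -1.33 without that library). Its partner PSMG2 had 28.5, 27.3 and 28.0 FPKM in OE-SOX3, against 39.6, 41.1 and 41.0 FPKM in OE-NC (log2 fold change -0.52, SE 0.06, adjusted p = 0.00015). The partners of this pair thus differed in the size of their fall, a difference that was not tested. PSMG3 had 16.5, 13.8 and 14.1 FPKM in OE-SOX3, against 31.0, 21.6 and 21.4 FPKM in OE-NC (log2 fold change -0.68, adjusted p = 0.00513). PSMG4, the lowest tested transcript of the set, had 1.53, 1.38 and 1.63 FPKM in OE-SOX3, against 2.60, 2.14 and 2.29 FPKM in OE-NC (log2 fold change -0.41, adjusted p = 0.00182).

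Of the 3 chaperones of base assembly, 2 fell. PSMD5, which binds a pair of ATPases during assembly, averaged 14.2 ± 0.406 FPKM in OE-SOX3 and 19.3 ± 0.868 FPKM in OE-NC (SD, n = 3 each; log2 fold change -0.42, limma adjusted p = 0.000767). PSMD9 averaged 15.4 ± 0.802 FPKM in OE-SOX3 and 19.4 ± 2.99 FPKM in OE-NC (log2 fold change -0.30, adjusted p = 0.0385; -0.19 without OE-NC replicate 1). Its call was lost in 7 of 14 alternatives, with adjusted p from 0.0532 to 0.159, which left PSMD5 as the single fall of the class in each of the 7. PSMD10, also called gankyrin, averaged 32.7 ± 0.642 FPKM in OE-SOX3 and 36.1 ± 1.71 FPKM in OE-NC and did not pass (log2 fold change -0.14, adjusted p = 0.0756). It passed without OE-NC replicate 1 (-0.12, adjusted p = 0.0336). The class median was -0.30, and -0.19 without OE-NC replicate 1.

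PSMC3IP is reported apart, since its protein (also called HOP2) works with MND1 in strand exchange during homologous recombination and is not a proteasome subunit. It lies on chromosome 17 (42572315 to 42577831, minus strand, GRCh38). It shares 29.9% of its exon bases with other genes, the largest overlap being with MLX on the other strand. It had 5.08, 4.74 and 5.38 FPKM in OE-SOX3, against 41.8, 32.9 and 31.7 FPKM in OE-NC. The fall of 7.0-fold (log2 fold change -2.58, SE 0.11, limma adjusted p = 3.37e-06; 6.38-fold without OE-NC replicate 1) was the largest under the symbol rule. Without it, 39 of 47 tested proteasome genes fell, with a median of -0.59.

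The values in OE-NC replicate 1 followed gene length, and proteasome genes are short. Their median length, as fitted to the values, was 1653 bases, against 3941 bases over all tested genes. OE-NC replicate 1 was above the mean of OE-NC replicates 2 and 3 in 42 of the 48 genes, with a median excess of 0.32 on the log2 scale, against 0.0046 over all tested genes. Across genes, which are not independent replicates and share these libraries, length and this excess had a Spearman correlation of -0.50 in the 48 genes and -0.51 in all tested genes. Length and the log2 fold change correlated at -0.15 within the 48 genes and at 0.24 across all tested genes. With OE-NC replicate 1 left out these values were -0.21 and 0.16. The members most moved by the library are PSMB1 and PSMB3 in the core, PSME1 and PSME2 among the activators, and PSMG1.

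**Figure D4:**
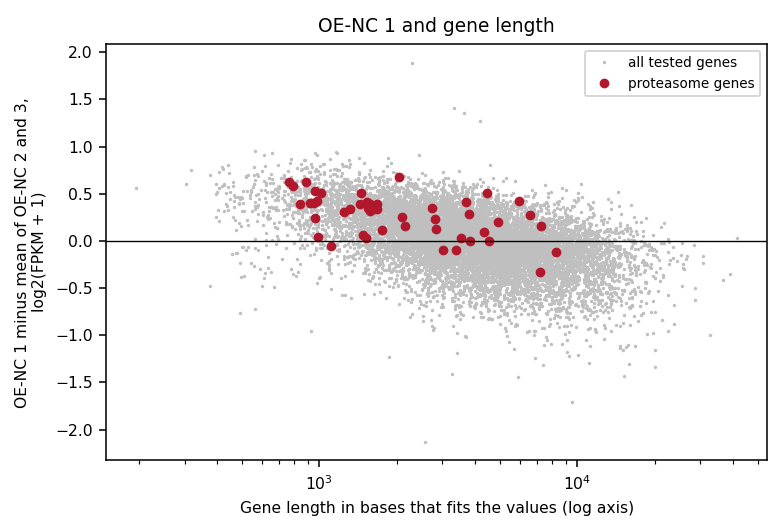
Each point is a tested gene, with its fitted length in bases on a log axis and, upwards, OE-NC replicate 1 minus the mean of OE-NC replicates 2 and 3 in log2(FPKM + 1). Proteasome genes (red) lie mostly among the shorter genes and above 0, with a median of 0.32, and the whole cloud (grey) slopes down with length.

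Promoter windows were also searched, on both strands, for other elements, the SOX core among them. Matches of different elements may overlap, and the counts are descriptions. The ETS letters CCGGAAG stood in 16 of the 42 genes with a window (38.1%), against 16.5% of protein-coding genes. The core of the antioxidant response element that NRF1 binds, TGANNNNGC, stood in 28 (66.7%, against 49.6%). The NF-Y box CCAAT stood in 20 (47.6%, against 42.1%), the Sp1 box GGGCGG in 30 (71.4%, against 64.3%) and the SOX core AACAAT in 2, PSMD1 and PSMF1 (4.76%, against 9.59%). The ETS letters stood in 13 of 34 genes with a window that fell and in 2 of 7 that did not pass. Those 2 include PSMC6 of the cap, with its match at base -107 from the start. In 7 cap genes that fell the first ETS match starts within 25 bases of the start (PSMC1, PSMC2, PSMD7, PSMD8, PSMD12, PSMD13 and PSMD14). It is shown for 3 of them as examples, the ATPase PSMC2 (chr7:103347595-103347654, plus strand) and the lid genes PSMD12 (chr17:67366551-67366610, minus) and PSMD14 (chr2:161308396-161308455, plus). Capitals mark the match.
PSMC2: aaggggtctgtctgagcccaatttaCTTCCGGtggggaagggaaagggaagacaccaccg
PSMD12: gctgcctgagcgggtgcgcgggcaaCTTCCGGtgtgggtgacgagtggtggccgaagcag
PSMD14: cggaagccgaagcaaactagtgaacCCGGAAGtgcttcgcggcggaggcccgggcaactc
PSMC2 and PSMD12 carry the reverse complement. PSMD14 carries the letters as spelled, across its start.

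Genes that work with the proteasome but lie outside the PSM names were read from lists chosen by function. Among 18 partners (ubiquitin receptors, deubiquitinases, shuttle factors and maturation factors), 10 fell, 1 rose and 7 missed the threshold, beside 36.1% lower and 32.9% higher among all tested genes. Their median log2 fold change was -0.37. ADRM1, a ubiquitin receptor of the cap, averaged 19.0 ± 1.11 FPKM in OE-SOX3 and 46.2 ± 2.76 FPKM in OE-NC (SD, n = 3 each; log2 fold change -1.24, limma adjusted p = 1.08e-05). USP14, a cap-bound deubiquitinase (21.3 FPKM in OE-SOX3, 36.9 FPKM in OE-NC), and PITHD1 (21.8 FPKM in OE-SOX3, 47.3 FPKM in OE-NC) also fell. The exception was ZFAND5, a zinc finger protein that binds the proteasome and stimulates it, with 46.9 ± 1.11 FPKM in OE-SOX3 and 11.8 ± 0.371 FPKM in OE-NC (log2 fold change 1.91, adjusted p = 1.35e-06). Without OE-NC replicate 1, 11 partners fell and 3 rose, beside 43.1% lower and 38.4% higher.

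The transcription factor gene NFE2L1 did not pass, with 112 ± 1.18 FPKM in OE-SOX3 and 111 ± 3.87 FPKM in OE-NC (SD, n = 3 each; log2 fold change 0.01, limma adjusted p = 0.925). NRF1 is controlled largely after transcription, so this value says nothing of its activity. A list on NRF1 regulation held 12 genes: NFE2L1, the related factors NFE2L2 and NFE2L3, MAF factor genes, and genes for processing or turnover. Their roles differ, so a count of them gives no direction for NRF1. Of these 12 genes, 7 rose, 2 fell and 3 missed the threshold, beside 32.9% higher and 36.1% lower among all tested genes. Without OE-NC replicate 1, 7 rose and 3 fell, beside 38.4% higher and 43.1% lower among all tested genes. The median log2 fold change of the 12 genes was 0.26. DDI2, the protease that releases active NRF1, averaged 3.99 FPKM in OE-SOX3 and 1.63 FPKM in OE-NC (log2 fold change 0.93). The related factor NFE2L3 (44.2 FPKM in OE-SOX3, 26.9 FPKM in OE-NC) and the ubiquitin ligase subunit FBXW7 (4.00 FPKM in OE-SOX3, 2.23 FPKM in OE-NC) rose. VCP, the p97 ATPase that extracts NRF1 and many other substrates, fell (90.3 FPKM in OE-SOX3, 130.0 FPKM in OE-NC).

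Upstream of degradation, 9 of 10 genes for ubiquitin supply and p97 cofactors were tested, and 5 fell, 0 rose and 4 missed the threshold (median -0.39), beside 36.1% lower among all tested genes. Without OE-NC replicate 1, 7 fell (median -0.29), beside 43.1%. The p97 cofactors UFD1 (16.6 FPKM in OE-SOX3, 38.1 FPKM in OE-NC; log2 fold change -1.15), FAF1 (6.94 FPKM in OE-SOX3, 17.0 FPKM in OE-NC; -1.18) and NPLOC4 (27.5 FPKM in OE-SOX3, 38.5 FPKM in OE-NC; -0.47) were among those that fell. UBB had at most 2 reads in the first library of each group and none in the others, so nothing is read from it.

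Downstream, of 17 genes of MHC class I antigen processing, 9 rose, 2 fell and 6 missed the threshold, beside 32.9% higher among all tested genes, and the median was 0.41. Without OE-NC replicate 1, 10 rose and 4 fell, beside 38.4% higher, with a median of 0.21. HLA-E, a non-classical class I gene, averaged 251 ± 6.85 FPKM in OE-SOX3 and 125 ± 1.84 FPKM in OE-NC (SD, n = 3 each; log2 fold change 0.99, limma adjusted p = 1.02e-05). HLA-F (14.4 FPKM in OE-SOX3, 9.22 FPKM in OE-NC) and ERAP2, a peptidase that trims class I peptides (61.7 FPKM in OE-SOX3, 36.9 FPKM in OE-NC), rose as well. HLA genes share long stretches of sequence, so reads may be split between them. TAP2, a subunit of the peptide transporter encoded beside PSMB8 and PSMB9, fell (11.8 ± 0.278 FPKM in OE-SOX3, 21.3 ± 0.501 FPKM in OE-NC, log2 fold change -0.80). This value is uncertain, since 32.3% of TAP2 exon bases are shared with other genes. The largest overlap is with AL669918.1 on the same strand. The partner TAP1, also in that gene cluster and named outside the rule, averaged 57.0 FPKM in OE-SOX3 and 50.1 FPKM in OE-NC (log2 fold change 0.18, limma adjusted p = 0.0256).

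**Figure D5:**
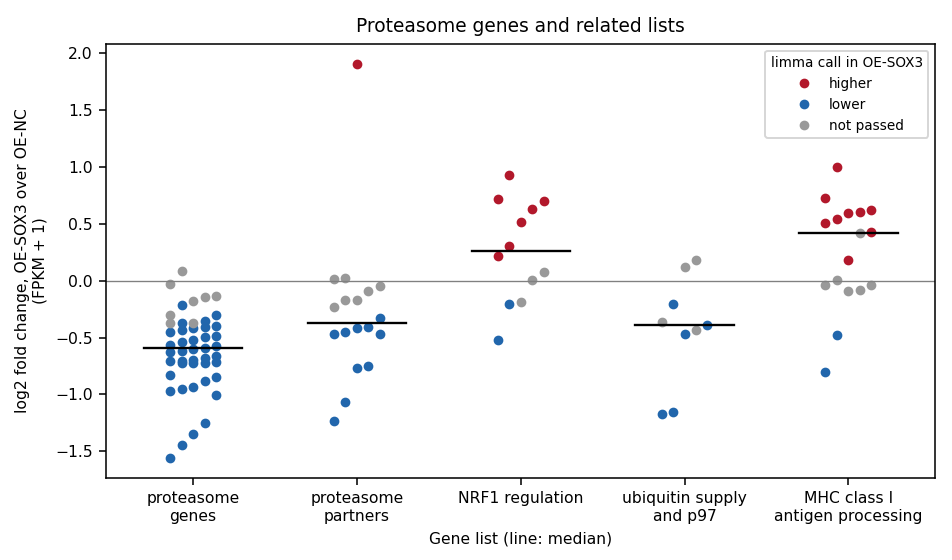
Each point is a tested gene, placed by list and by its log2 fold change (OE-SOX3 over OE-NC, FPKM + 1); red rose, blue fell and grey did not pass, and black lines are list medians. Proteasome genes (PSMC3IP left out) hold no red point and have a median of -0.59, against 0.41 for the MHC class I genes.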

How the data were processed

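RNA from 3 OE-SOX3 and 3 OE-NC libraries was used. The deposited values were treated as FPKM, in which the authors had divided reads per gene by gene length and library total. The file header names no unit, and this reading rests on the values: whole reads and gene lengths fitted all 16278 genes above 0 (within 0.02 reads). HISAT2, HTSeq, RSEM and hg38 are named per the submitters' processing notes, without roles; the annotation and any strand setting were not stated in the sources. The same length was fitted to a gene in all libraries, so dividing by it cannot remove a length trend that differs between libraries.

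OE-SOX3 was compared with OE-NC by limma-trend on log2(FPKM + 1) for genes averaging at least 1 FPKM in a group (limma 3.58.1, R 4.3.3; Benjamini-Hochberg, 0.05), after the code was tested on simulated data. Python 3.11.15, NumPy 2.4.6 and pandas 2.3.3 were also used. Same-numbered libraries deviated together (correlations 0.486, 0.243 and 0.250), which meets the rule set for pairing, so the number was used as a block in an alternative. The labels do not say what it marks, and OE-SOX3 2 with OE-NC 3 (0.282) and OE-SOX3 3 with OE-NC 2 (0.227) correlated about as much. Members, lists and the rule for named genes (catalytic, PA28, PA200 and core chaperone genes, the 8 largest falls, the 3 smallest changes, up to 4 called genes per related list) were chosen with earlier results of these data known. Other genes shown were added after their values were seen. Some genes that the rule takes are left unreported. Exon overlaps came from GENCODE 29. The share of exon bases held in common with other genes was also 24.7% in PSMA1, 34.6% in PSMA2, 14.1% in PSMA6 and 19.5% in PSMC5. It was 30.7% in PSMD7, 22.6% in PSMD9, 16.7% in PSMG2 and 15.0% in PSMG4. In PSMA1, PSMA6 and PSMD9 the largest overlap is on the same strand. The values of these genes are therefore uncertain too. The remaining alternatives were other scalings, pseudocount, filters, a length correction, limma-voom on recovered reads and each library left out. Counting error was small, with 145 to 15519 reads per tested gene and library.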

Additional observations from a re-analysis of the deposited data

How the results depend on the processing

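Of 40 proteasome genes that fell, 35 kept that call under all 14 alternatives. Falls numbered 36 to 45 across the alternatives. They were 38 with equal library sums, 38 with quantile normalization, 37 with the length trend removed, 40 in limma-voom and 43 with the replicate block. Among all tested genes, falls numbered 3200 to 4802 across the same alternatives. In the fit of all libraries they were 4021 of 11131 (36.1%). The replicate block gained PSMA2, PSMB1 and PSMB3 and changed no other call among these genes. Leaving out OE-SOX3 replicate 2 gave the fewest falls, and calls were lost under 1 alternative for PSMB4 and PSMB7, 5 for PSMB6 and PSMF1, and 7 for PSMD9. Rises numbered 0 in the fit of all libraries and 1 (PSME1) with quantile normalization, with the length trend removed and without OE-NC replicate 1 (0 to 1 over single libraries left out). Of the 8 genes with no passing difference, PSMB9, PSMD10, PSME1 and PSME4 changed sign. PSMB9 gave 0.0091 with equal library sums, 0.12 with quantile normalization, 0.12 with the length trend removed, and -0.22 to 0.036 over single libraries left out (highest without OE-NC replicate 1). PSMD10 gave 0.00029, 0.072 and 0.082 under the same first 3 settings. PSME4 gave 0.11 with equal sums, 0.066 quantile-normalized, and -0.14 to 0.037 over single libraries left out (0.018 and 0.037 without OE-NC replicates 2 and 3). PSME1 gave -0.0048 to 0.26 over single libraries left out (-0.0023 and -0.0048 without those 2 libraries). The causes were not tested. Scaling to equal library sums moved the median of all tested genes to 0.10. Genes of the related lists (18, 12, 9 and 17 tested in the fit of all libraries) numbered 15 to 20 higher and 15 to 25 lower. Among all tested genes, 3154 to 4636 were higher and 3200 to 4802 lower across the alternatives. In the fit of all libraries these were 32.9% and 36.1%. The signs of the subunit ratios held in every setting run, though the filters and the replicate block could not change these ratios. With 3 libraries a group and 1 control library apart, small differences such as those of PSMB9, PSMC6, PSMD10, PSME1 and PSME4 could not be settled here.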
